A study of Mus musculus with 3 samples.

Results

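The genes described here encode the receptors of the common gamma chain cytokines, and they were chosen by name: Il2ra, Il2rb, Il2rg, Il4ra, Il7r, Il9r, Il15ra and Il21r. All 8 were among the 44788 gene symbols of the count table. The series holds RNA-seq read counts from 3 libraries of T lymphocytes of female BALB/c mice, 6 to 8 weeks old, taken from the spleen with beads against CD90.2 and cultured with LZ-8 for 15 h in medium with serum. LZ-8 is an immunomodulatory protein of the fungus Ganoderma lucidum. All 3 belong to 1 group and untreated cells were not analysed here, so the levels below describe LZ-8-treated cells and not a response to the protein. Separate mice or cultures are not stated for the replicates. P-values therefore measure only the spread between these libraries, which may be technical.

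Receptors of this family share the gamma chain (Il2rg), which joins a private chain to transduce the signal of IL-4, IL-7, IL-9 or IL-21. For IL-2 and IL-15 it joins the beta chain (Il2rb), which both of these receptors use. The gamma chain binds the kinase JAK3 and its partner chains bind JAK1, and the kinases then phosphorylate STAT proteins, mainly STAT5 for IL-2, IL-7, IL-9 and IL-15, STAT6 for IL-4 and STAT3 for IL-21. Resting T cells depend on IL-7, and T cells that have met antigen gain a high-affinity receptor for IL-2 made of the alpha, beta and gamma chains.

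The libraries held 12669690 to 19041670 counts, and the 8 genes together took 0.237 to 0.244% of them. CPM is counts per 1000000 counts of the library. In each library 3 counts, the limit that a count of 0 allows, equal 0.158 to 0.237 CPM, and this limit and all intervals cover counting error only. The 12 T cell markers summed to 4255 to 4415 CPM with all 12 above 1 CPM. Markers of other cells that carry some of these receptors were far lower: 8 B cell markers summed to 18.4 to 21.2 CPM, 7 natural killer cell markers to 29.6 to 32.8 CPM (mostly Eomes, which T cells also express), 9 monocyte and macrophage markers to 3.95 to 5.03 CPM, 6 dendritic cell markers to 9.72 to 11.8 CPM, 6 mast cell and basophil markers to 7.41 to 10.1 CPM and 6 neutrophil markers to 0.105 to 0.272 CPM. Csf1r, C1qa, C1qc and Fcgr1 of the macrophages, Fcer1a, Mcpt8 and Prss34 of mast cells and basophils, Elane, Ltf and Retnlg of neutrophils, Klre1 of natural killer cells and Clec9a of dendritic cells had no read. Other members of these lists did have reads. The highest mean was 4.08 CPM among the monocyte and macrophage markers and 9.49 CPM among the dendritic cell markers. It was 8.24 CPM among the mast cell and basophil markers. Of the 8 B cell markers 7 were above 1 CPM, with a highest mean of 4.91 CPM. The part of such cells in the receptor levels was not tested. In bulk RNA, fewer cells of a type and less RNA per cell cannot be told apart.

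The family divides by a short signature in the coding sequence. The WSXWS motif (tryptophan, serine, any residue, tryptophan, serine) lies close to the membrane in class I cytokine receptors. It was found in the coding sequence of 6 of the 8 genes, against 71 of 21569 protein-coding genes (0.329%) and 15 of 24 other class I cytokine receptor genes. Il2ra and Il15ra did not hold it. Their proteins are known to bind ligand through sushi domains and are not class I receptors. The bases around the motif are shown for the 6 genes because the motif sets them apart from Il2ra and Il15ra. The 15 bases that encode the motif are in capitals (GENCODE vM21 transcripts, GRCm38, each stretch within 1 coding exon).
Il2rg: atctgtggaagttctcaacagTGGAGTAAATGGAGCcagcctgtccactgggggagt
Il2rb: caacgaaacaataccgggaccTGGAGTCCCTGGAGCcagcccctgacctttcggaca
Il4ra: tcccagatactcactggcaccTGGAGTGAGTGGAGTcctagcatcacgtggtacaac
Il21r: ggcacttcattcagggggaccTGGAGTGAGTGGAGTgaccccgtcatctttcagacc
Il7r: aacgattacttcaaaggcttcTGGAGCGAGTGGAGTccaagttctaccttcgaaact
Il9r: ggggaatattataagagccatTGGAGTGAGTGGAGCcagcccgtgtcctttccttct
The stretches lie at chrX:101266194-101266250 (minus strand, exon 5 of 8) for Il2rg, chr15:78485742-78485798 (minus strand, exon 7 of 10) for Il2rb, chr7:125571533-125571589 (plus strand, exon 7 of 11) for Il4ra, chr7:125628977-125629033 (plus strand, exon 6 of 9) for Il21r, chr15:9511130-9511186 (minus strand, exon 5 of 8) for Il7r and chr11:32193190-32193246 (minus strand, exon 6 of 9) for Il9r. Il4ra and Il21r have the same 15 bases in capitals. Between any other pair of the 6 genes, 10 to 14 of the 15 bases are identical, with Il2rb and Il7r the least alike.

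All 8 genes were above 1 CPM, as were 30.2% of all symbols, and 5 of them were above 100 CPM, as were 5.74% of all symbols. Their levels covered a wide range, with Il9r at the bottom. In reads and per kilobase of exon, the chains of the IL-2 receptor were the 3 highest, followed by Il4ra and Il21r, then by Il7r and Il15ra at similar levels.

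**Figure D1:**
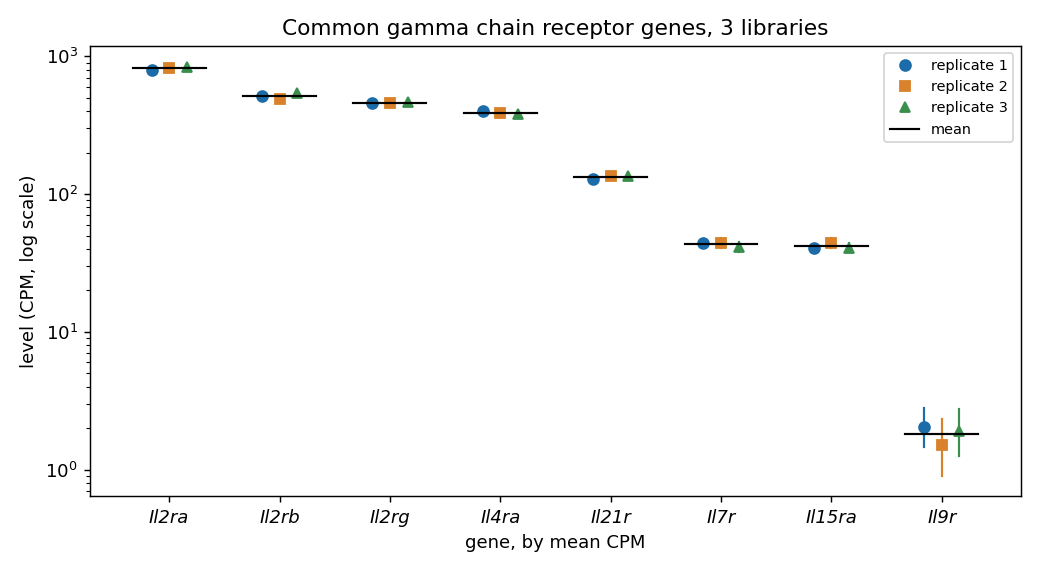
Level of each receptor gene in the 3 libraries, in CPM on a log scale. Symbols are replicates, vertical lines the exact 95% Poisson intervals of the counts (mostly hidden by the symbols) and horizontal lines the means; the genes run from Il2ra at 816 CPM to Il9r at 1.82 CPM.

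Il2rg encodes the shared chain and lies on the X chromosome (chrX:101264378-101268255, GRCm38, minus strand). It had 454, 457 and 469 CPM in replicates 1, 2 and 3, a mean of 460 ± 7.93 CPM (SD, n = 3). The 3 values lay close together, within 0.06 log2 units. Il2rg shares 28.7% of its 31-base words with other annotated transcripts, most of them with Gm20489, which overlaps 30.5% of its exon length on the same strand. Gm20489 has no row in the count table, so reads of the shared exons may have been counted for Il2rg or dropped.

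Il2rb encodes the beta chain used by the receptors of IL-2 and IL-15 (chr15:78479256-78495271, minus strand). It stood at 512, 491 and 542 CPM in replicates 1, 2 and 3, a mean of 515 ± 25.5 CPM (SD, n = 3). Replicate 3 was highest and replicate 2 lowest.

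Il2ra and Il15ra encode the alpha chains that raise the affinity for IL-2 and IL-15, and they are neighbours on chromosome 2, 12.1 kb apart and on the same strand (chr2:11642807-11693193 and chr2:11705290-11734317). Il2ra had 794, 824 and 829 CPM in replicates 1, 2 and 3, a mean of 816 ± 19.2 CPM (SD, n = 3). Il15ra had 40.3, 44.4 and 40.9 CPM, a mean of 41.9 ± 2.24 CPM. The ranges were far apart, in CPM and per kilobase. Of the reads of both genes, Il2ra held 95.2% in replicate 1, 94.9% in replicate 2 and 95.3% in replicate 3, with exact 95% binomial intervals of 94.8 to 95.5%, 94.5 to 95.3% and 94.9 to 95.7%.

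The private chains of the IL-4 and IL-21 receptors are also neighbours, on chromosome 7 and 24.0 kb apart on the plus strand (chr7:125552120-125579474 and chr7:125603429-125633570). Il4ra, whose protein binds IL-4 and activates STAT6, had 398, 387 and 380 CPM in replicates 1, 2 and 3, a mean of 388 ± 8.97 CPM (SD, n = 3). Il21r, whose protein binds IL-21, had 129, 134 and 135 CPM, a mean of 133 ± 3.37 CPM. The ranges did not overlap. Gm44876, antisense to Il4ra, covers 9.51% of the Il4ra exon length and has no row in the table, and the use of strand in counting is not given.

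Il7r encodes the IL-7 receptor alpha chain, the survival receptor of resting T cells (chr15:9505788-9530176, minus strand). It had 44.4, 44.1 and 41.2 CPM in replicates 1, 2 and 3, a mean of 43.2 ± 1.79 CPM (SD, n = 3). Per kilobase Il7r lay above 53.4% of the genes of at least 1 CPM with a known exon length, where Il2ra lay above 97.0%. The level of Il7r was thus near the middle of the expressed genes.

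Il9r, the IL-9 receptor gene (chr11:32187541-32200279, minus strand), was the lowest. It had 39, 19 and 28 reads in replicates 1, 2 and 3, or 2.05, 1.4996 and 1.90 CPM, a mean of 1.82 ± 0.284 CPM (SD, n = 3). The exact 95% Poisson intervals were 1.46 to 2.80, 0.903 to 2.34 and 1.26 to 2.75 CPM, so the replicates could not be told apart at this depth. Every library was above the limit of 3 counts.

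The promoters of the 2 neighbouring pairs are shown because genes side by side differed in level (RefSeq, GRCm38.p6, 250 bases before to 50 after a start site; capitals mark matches to the motifs given after the sequences).
Il2ra: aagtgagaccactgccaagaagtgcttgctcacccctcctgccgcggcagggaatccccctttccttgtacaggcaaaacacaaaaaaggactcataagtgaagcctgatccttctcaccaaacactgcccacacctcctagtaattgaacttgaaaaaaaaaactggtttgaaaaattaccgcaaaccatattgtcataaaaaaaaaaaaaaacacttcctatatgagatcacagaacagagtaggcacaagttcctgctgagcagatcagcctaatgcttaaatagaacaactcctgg
Il15ra: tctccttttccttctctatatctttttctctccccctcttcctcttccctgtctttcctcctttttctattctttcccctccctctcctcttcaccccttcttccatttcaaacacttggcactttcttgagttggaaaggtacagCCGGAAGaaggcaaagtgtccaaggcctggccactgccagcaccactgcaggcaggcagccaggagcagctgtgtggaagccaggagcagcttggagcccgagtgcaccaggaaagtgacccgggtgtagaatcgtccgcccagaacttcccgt
Il4ra: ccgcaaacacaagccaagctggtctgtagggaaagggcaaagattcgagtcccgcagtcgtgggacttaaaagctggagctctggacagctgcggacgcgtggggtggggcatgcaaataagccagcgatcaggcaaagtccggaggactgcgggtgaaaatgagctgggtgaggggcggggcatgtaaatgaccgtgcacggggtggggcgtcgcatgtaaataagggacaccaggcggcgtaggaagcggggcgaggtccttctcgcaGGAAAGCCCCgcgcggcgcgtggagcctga
Il21r: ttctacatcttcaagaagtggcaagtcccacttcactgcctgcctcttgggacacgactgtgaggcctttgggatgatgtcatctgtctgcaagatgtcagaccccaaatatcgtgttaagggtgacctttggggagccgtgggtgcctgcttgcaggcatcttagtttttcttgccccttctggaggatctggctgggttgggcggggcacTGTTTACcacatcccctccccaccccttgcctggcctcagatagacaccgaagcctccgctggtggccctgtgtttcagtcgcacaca
They span chr2:11642542-11642841, chr2:11705043-11705342, chr7:125552021-125552320 and chr7:125603179-125603478, all on the plus strand. Of the 8 genes 7 had an entry, with 8 windows in all, because Il15ra had 2 windows, of which 1 is shown. On both strands of each window 6 motifs were searched, and no match overlapped another: TTCNNNGAA (STAT), TGANTCA (AP-1), GGG followed by 2 bases and TTTCC (NF-kB), CCGGAAG (ETS), TGTTTAC (FOXO) and TGGAAAA (NFAT). The Il2ra window held none of these exact strings. Looser forms of the 6 motifs were not searched, so sites of these factors may still be present there. The Il15ra window shown held the ETS letters, the Il4ra window the NF-kB letters on the minus strand, and the Il21r window the FOXO letters. The Il15ra window not shown (chr2:11705462-11705761) held the AP-1 letters and 15 CpG pairs. The STAT letters were in 1 of the 8 windows, that of Il7r, and in 8.30% of all 32851 windows. The ETS letters were in 2 of the 8 and in 8.86% of all, and the NF-kB, AP-1 and FOXO letters in 1 of the 8 each and in 1.63%, 7.81% and 3.65% of all. The NFAT letters were in 0 of the 8 and in 6.73% of all. A match is a description of letters only. Of the windows shown, that of Il4ra held 25 CpG pairs, that of Il21r 7, that of Il15ra 6 and that of Il2ra 3. The median over all windows was 7.

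Read counts grow with transcript length, so levels were compared between genes per kilobase of exon. On that scale the shared chain led: Il2rg had 190.3, 191 and 197 CPM per kb in replicates 1, 2 and 3, a mean of 193 ± 3.32 CPM per kb (SD, n = 3). Il2ra followed at 143 ± 3.36, Il2rb at 120 ± 5.94, Il4ra at 64.7 ± 1.495 and Il21r at 40.0 ± 1.01 CPM per kb. Il15ra (9.42 ± 0.504 CPM per kb) and Il7r (9.27 ± 0.385 CPM per kb) came next, and Il9r was last at 0.367 ± 0.0574 CPM per kb. The ranges over the 3 libraries did not overlap between neighbours in this order, with the exception of Il15ra and Il7r. Il2rg was above 98.0% and Il9r above 2.98% of the 12820 genes of at least 1 CPM with a known exon length, whose median was 8.26 CPM per kb.

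**Figure D2:**
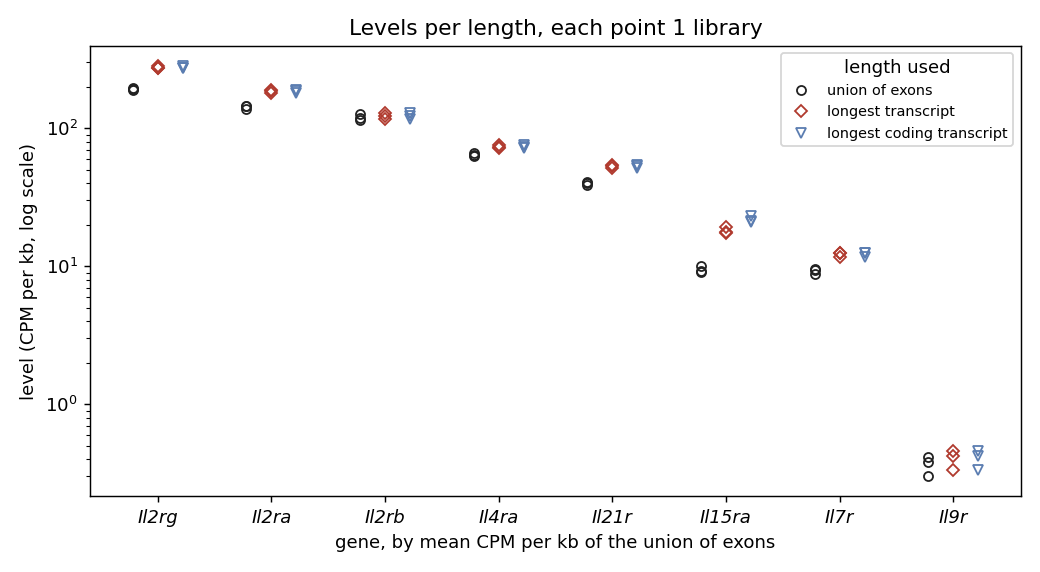
Level of each receptor gene in CPM per kb on a log scale, with each point 1 library and each symbol 1 choice of gene length. Il2rg was highest and Il9r lowest with each of the 3 lengths, and Il15ra and Il7r overlapped with the union of exons and separated with the other lengths.

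The length used mattered most for Il15ra, which has 18 annotated transcripts. Its level was 18.1 CPM per kb of its longest transcript and 21.6 CPM per kb of its longest coding transcript, and with both it lay above Il7r (12.2 CPM per kb) without overlap. The order of all 8 means was the same with the 3 lengths.

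Ratios of chains that work together were taken within each library, as log2 of reads plus 0.5 per kilobase. Il2ra exceeded Il2rb by 0.22, 0.33 and 0.20 log2 units in replicates 1, 2 and 3, a mean of 0.25 ± 0.07 (SD, n = 3). Il2ra lay below the shared chain, with a log2 ratio to Il2rg of -0.43 ± 0.02, and Il2rb lay further below it at -0.68 ± 0.05. Each of these directions was the same in 3 of 3 libraries.

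The private chains spanned a far wider range against Il2rg. The log2 ratio to Il2rg was -1.58 ± 0.06 for Il4ra, -2.27 ± 0.02 for Il21r, -4.38 ± 0.09 for Il7r and -9.02 ± 0.22 for Il9r (SD, n = 3). Per kilobase Il2rg therefore exceeded Il7r 20.8-fold and Il4ra 2.98-fold. The 5 chains that pair with Il2rg in signalling (Il2rb, Il4ra, Il7r, Il9r and Il21r) summed to 1.22 ± 0.0178 times the level of Il2rg per kilobase of exon, and to 0.952 ± 0.0124 times it with the longest transcripts, so this ratio lay on either side of 1 with the length used.

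Il2ra exceeded Il15ra 15.2-fold (log2 ratio 3.92 ± 0.07) and Il7r 15.4-fold (3.94 ± 0.09) per kilobase. Il15ra stood at -3.67 ± 0.14 log2 units against Il2rb, its partner in the IL-15 receptor, and Il4ra exceeded its neighbour Il21r 1.62-fold (0.70 ± 0.07). The ratios with Il15ra depended on the length used: per kilobase of the longest coding transcript the log2 ratio was 3.10 for Il2ra to Il15ra and -2.50 for Il15ra to Il2rb. Each of the 11 ratios had the same sign in 3 of 3 libraries. A two-sided exact sign-flip permutation test over the libraries gave p = 0.25 for each, raw and adjusted over the 11, which is the smallest value possible with 3 libraries and cannot reach 0.05. Without scaling for length the ratios of Il2ra and Il2rb to Il2rg changed sign, to 0.83 and 0.16.

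**Figure D3:**
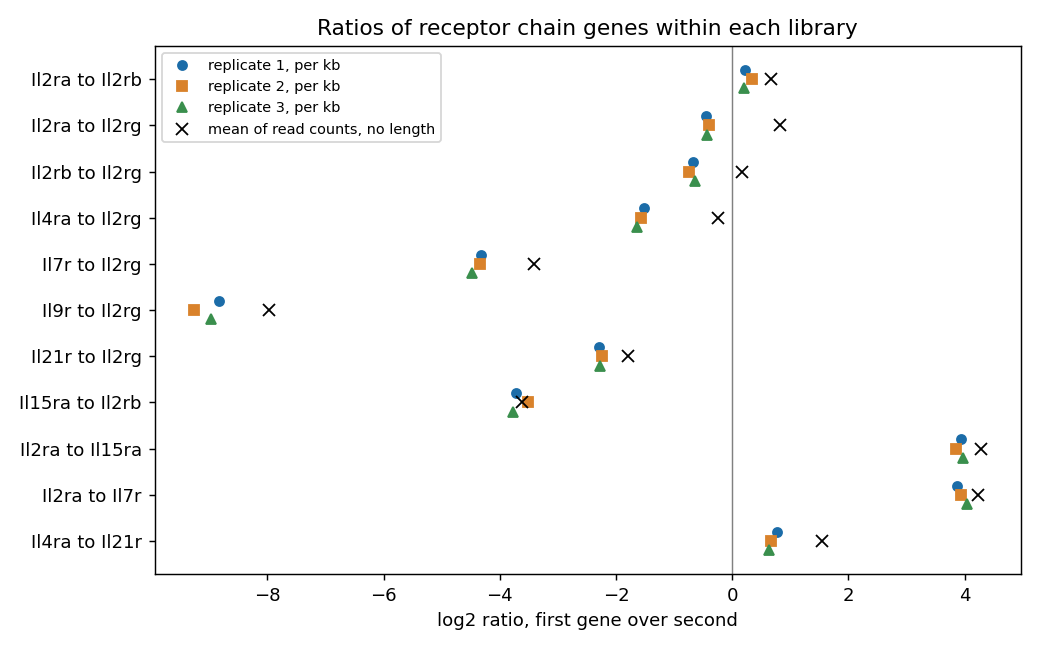
Log2 ratio of the first over the second gene of each pair, with coloured symbols for the 3 libraries per kb of exon and crosses for the mean ratio of read counts with no length. The crosses lie right of 0 for Il2ra to Il2rg (0.83) and Il2rb to Il2rg (0.16), where the values per kb lie left of it.

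The ligands of these receptors were lower than the chains that bind them, where a ratio could be given. Il2, the T cell growth factor, was the highest of the 6 ligand genes. Per kilobase Il2ra stood at 139, 144 and 145 CPM per kb and Il2 at 21.7, 17.7 and 19.4 CPM per kb in replicates 1, 2 and 3, a 7.30-fold difference (log2 ratio 2.87 ± 0.17, SD, n = 3). Il4ra exceeded Il4 31.2-fold (4.96 ± 0.32) and Il21r exceeded Il21 30.1-fold (4.91 ± 0.08), with Il4 at 2.08 ± 0.420 and Il21 at 1.32 ± 0.0573 CPM per kb. Il7, which stromal cells are known to make, had no read in any library, and Il7r was at least 226-fold higher per kilobase, against 3 counts in each library. Il9 had no read either, and Il9r itself was so low that no ratio is given. Il15 had 2, 1 and 0 reads. Of their 31-base words, Il2 shares 15.0% and Il21 9.15% with other annotated transcripts, so these 2 levels are less certain.

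Other chains and cytokines that meet these receptors were few. Crlf2, which joins Il7r in the receptor of TSLP, had 12.9, 12.4 and 15.4 CPM per kb in replicates 1, 2 and 3, so all 3 values lay above those of Il7r on this scale. Without length the order was the reverse, with 20.3 ± 2.39 CPM for Crlf2 and 43.2 ± 1.79 CPM for Il7r (SD, n = 3). Il13ra1, which joins Il4ra in the second type of IL-4 receptor, had 0, 2 and 2 reads, and Il13ra2 had none. Il13, a cytokine of that receptor, stood at 1.52 ± 0.345 CPM (SD, n = 3), and Tslp had 0, 0 and 1 reads.

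The listed transducers were abundant, with 6 of 6 JAK and STAT genes above 100 CPM. Jak1, which binds the partner chains, stood at 66.2 ± 2.47 CPM per kb and Jak3, which binds the gamma chain, at 58.3 ± 3.11 CPM per kb (SD, n = 3). Stat6 stood at 97.0 ± 1.44 CPM per kb, Stat5a at 79.8 ± 2.53, Stat5b at 59.5 ± 1.34 and Stat3 at 38.7 ± 0.259 CPM per kb. Stat5a and Stat5b share 12.3% and 15.2% of their 31-base words with other transcripts, each mainly with the other, so their levels are less certain. Jak3 shares 8.29%, mainly with Insl3, and its level is less certain as well. Il2rg, Il2ra and Il2rb lay above all 6 of these means per kilobase, Il4ra and Il21r lay within their range, and Il7r, Il15ra and Il9r lay below it.

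**Figure D4:**
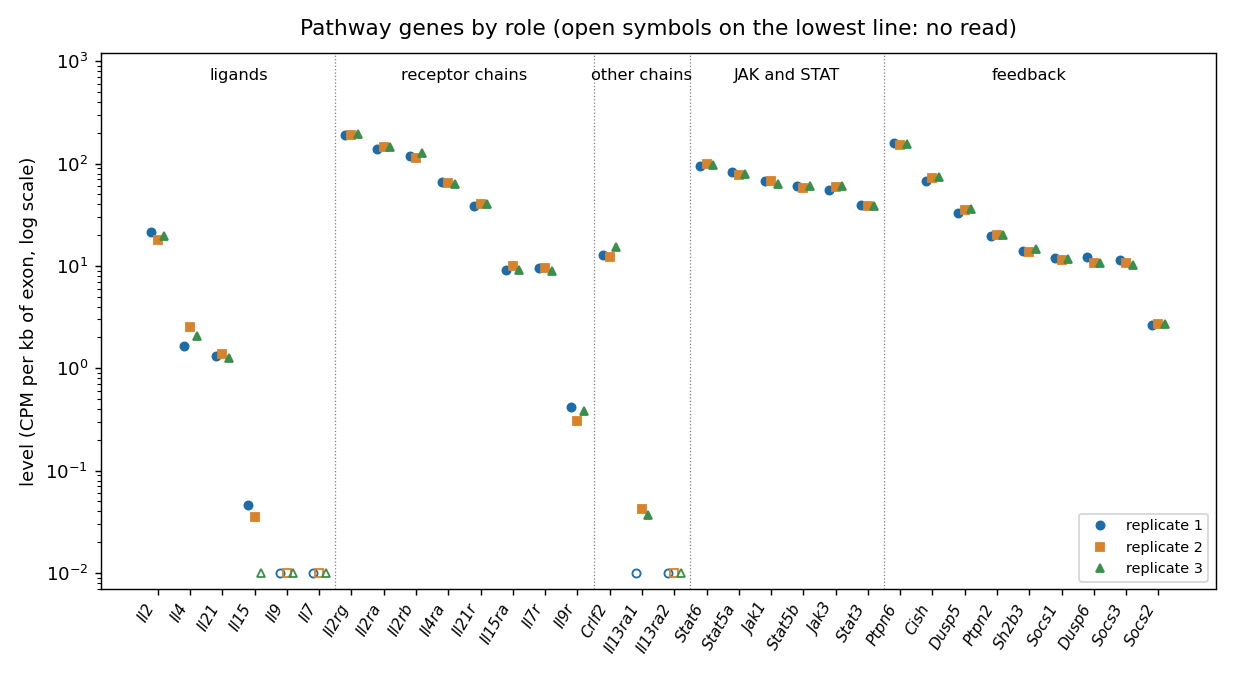
Level in CPM per kb of exon, on a log scale, of the pathway genes grouped by role, with 1 symbol for each of the 3 libraries. Open symbols at the bottom mark libraries with no read, as in all 3 for Il7, Il9 and Il13ra2, while the means of the JAK and STAT genes shown lie between 38.7 and 97.0 CPM per kb.

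Genes listed as downstream of the receptors were read as lists. Their levels come from 1 treated group, and signalling through the receptors or the STAT proteins was not tested. All 9 feedback and phosphatase genes were above 1 CPM and 2 above 100 CPM, led per kilobase by the phosphatase gene Ptpn6 (156 ± 3.85 CPM per kb) and by Cish (71.3 ± 2.90 CPM per kb), a STAT5-induced inhibitor, then by Dusp5 (34.5 ± 1.56) and Ptpn2 (19.9 ± 0.155 CPM per kb). The lists here were chosen by name, and of all symbols 30.2% were above 1 CPM and 5.74% above 100 CPM. Of the 15 genes listed as STAT5 targets, 15 were above 1 CPM and 9 above 100 CPM. The highest per kilobase were the survival kinase gene Pim2 (199 ± 6.95 CPM per kb), the growth regulator Myc (166 ± 5.48), the survival gene Mcl1 (122 ± 3.97) and the kinase gene Pim1 (119 ± 4.81 CPM per kb). The 9 genes listed as STAT6 and STAT3 targets were lower, with 1 above 100 CPM, Il4ra itself. Their next highest were the transcription factor genes Batf (23.2 ± 0.825), Gata3 (8.22 ± 0.157) and Maf (4.19 ± 0.281 CPM per kb). The adaptor list had 8 of 9 genes above 1 CPM, led by the T cell receptor kinase gene Lck (178 ± 3.96 CPM per kb) and the PI3 kinase subunit gene Pik3cd (177 ± 4.41 CPM per kb), then by Grb2 (34.7 ± 1.11) and Shc1 (15.1 ± 0.516 CPM per kb). Gab2, named after its value was seen, was the 1 below, at 0.401 CPM. Of 13 regulators of receptor genes, 13 were above 1 CPM, led by Ets1 (87.9 ± 1.45), Nfkb1 (68.5 ± 1.12), Nfatc1 (41.5 ± 0.511) and Klf2 (34.6 ± 4.51 CPM per kb). The 5 regulatory T cell markers, whose cells are known to carry Il2ra at rest, summed to 560.3 to 579.8 CPM, with Tnfrsf18 at 129, Foxp3 at 37.2, Ctla4 at 30.8 and Lrrc32 at 11.4 CPM per kb. In bulk RNA the reads of these 5 genes cannot be assigned to regulatory T cells or to other T cells. The part of regulatory T cells in the Il2ra level was not tested.

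The median of the 8 receptor genes was 52.3 CPM per kb, against 0.180 CPM per kb for the 24 listed other class I cytokine receptor genes. In that list 12 genes were above 1 CPM and 4 above 100 CPM, and 5 (Il31ra, Lifr, Osmr, Cntfr and Csf3r) had no read. The highest were Il27ra (67.5 ± 1.92 CPM per kb), the IL-27 receptor, then Il12rb1 (28.5 ± 0.705), Crlf3 (27.8 ± 0.821) and Il6st (19.6 ± 0.909 CPM per kb), the shared signal chain of the IL-6 family. Il27ra lay between Il2rb (120 CPM per kb) and Il4ra (64.7 CPM per kb), and the rest of that list lay below Il21r (40.0 CPM per kb). Both lists were chosen by name with earlier results of these data known, so the medians depend on the genes listed. No test was made between them.

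Among the listed genes other than markers of other cell types, the level most like that of each receptor gene over the 3 libraries was found by the root-mean-square difference of log2(CPM per kb + 0.1), over 115 candidates. The gene closest to Il2ra was Cd2 (0.06 log2 units), to Il2rb Pim1 (0.04), to Il2rg Pim2 (0.05) and to Il4ra Jak1 (0.04). The gene closest to Il21r was Cd8a (0.05), to Il7r Ccnd3 (0.05) and to Il15ra Il7r (0.07). The gene closest to Il9r was Syk, at a distance of 0.39.

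The replicates were compared with edgeR's likelihood-ratio test of equal level, with the dispersion at 0, so that a call means a difference beyond counting noise between these libraries and not between conditions. Of the 8 genes 2 varied, against 13.7% of the 13500 genes tested. The test calls abundant genes more readily, and both were among the 5 receptor genes of at least 100 CPM, where 33.9% of all genes varied. The members' share was thus near that of all genes of such a level. Il2rb spanned 0.15 log2 units between replicate 2 and replicate 3 (adjusted p = 1.79e-07, edgeR), and Il2ra spanned 0.07 log2 units with replicate 1 lowest (adjusted p = 0.00124, edgeR). The other 6 had adjusted p of 0.167 (Il2rg), 0.233 (Il4ra), 0.370 (Il21r), 0.401 (Il15ra), 0.594 (Il7r) and 0.708 (Il9r) in the same edgeR test. Il2ra lost its call without replicate 1 (adjusted p = 0.682, edgeR) and Il2rb without replicate 3 (adjusted p = 0.134, edgeR).

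**Figure D5:**
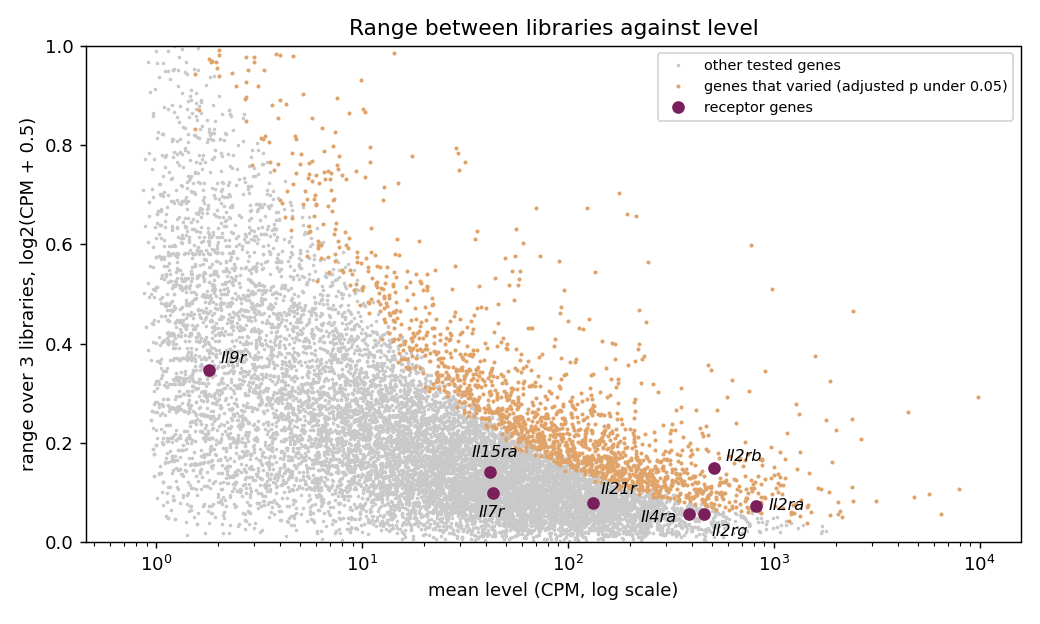
Range between the 3 libraries, on the scale log2(CPM + 0.5), against the mean CPM (log scale) of the 13500 tested genes, with the genes that varied in orange, the others in grey and the receptor genes in purple; 82 genes with a range over 1 lie outside the plot. Il2rb (0.15) and Il2ra (0.07) lie among the genes that varied, and Il9r has a wide range (0.35) at a low level.

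The range between libraries differed among the receptor genes. It was 0.06 log2 units for Il2rg and Il4ra, 0.08 for Il21r, 0.10 for Il7r, 0.14 for Il15ra, 0.15 for Il2rb and 0.35 for Il9r, the gene with the fewest reads. Among the listed transducers 3 of 6 varied in the same edgeR test: Jak3, at 293, 318 and 325 CPM in replicates 1, 2 and 3 (adjusted p = 2.07e-06), Jak1, at 491, 487 and 458 CPM (adjusted p = 0.00349), and Stat5a, at 588, 553 and 565 CPM (adjusted p = 0.00423). Jak3 was lowest in replicate 1, as Il2ra was, and Jak1 was lowest in replicate 3, where Il2rb was highest. Stat5a was highest in replicate 1 and lowest in replicate 2. With 3 libraries, genes often share a lowest or highest library, and a link between these genes was not tested. Of the 15 STAT5 target genes 7 varied, of the 9 STAT6 and STAT3 target genes 0, of the 9 feedback genes 1 (Cish, adjusted p = 1.5e-05, edgeR), of the 8 adaptor genes tested 3, of the 13 regulators 2, of the 12 other class I receptor genes tested 2 and of the 3 ligands tested 0. These lists differ in level, with 9 of 15 STAT5 target genes and 1 of 9 STAT6 and STAT3 target genes above 100 CPM. Of all genes tested 13.7% varied, and of those of at least 100 CPM 33.9%, so the counts are not compared between lists. Cish, Foxp3 and Lck count in 2 lists each. Of the 12 T cell markers 6 varied and of the 5 regulatory T cell markers 3 (Foxp3, Ikzf2 and Lrrc32), with Foxp3 at 164, 166 and 179 CPM in replicates 1, 2 and 3 (adjusted p = 0.0109, edgeR). Lrrc32 had 50.6, 49.9 and 60.5 CPM, and Ikzf2, named after its values were seen, had 84.2, 83.8 and 69.9 CPM. Tnfrsf18 was highest in replicate 1, with 204, 190 and 197 CPM in replicates 1, 2 and 3. Il4ra, Il7r and Il9r were also highest in replicate 1, and Il15ra in replicate 2. Il2ra, Il2rb, Il2rg, Il21r, Foxp3, Lrrc32 and Ctla4 were highest in replicate 3, and Ikzf2 was lowest there. The summed regulatory T cell markers (579.8 CPM) and T cell markers (4415 CPM) were also highest in replicate 3, and their part in the differences of Il2ra and Il2rb was not tested. Of the B cell markers 7 could be tested and of the natural killer cell markers 3, and of these 0 varied.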

How the data were processed

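The authors deposited 1 table of read counts per gene symbol with 1 column per library; its whole numbers and unequal column totals mark them as raw counts. The submitters' processing notes name mm10 as genome build; aligner, counter, annotation and strand use are not given in the sources at hand. Per the labels' protocols, libraries were made with an Ion Proton RNA-seq kit from Trizol RNA. The receptor genes and lists were chosen with earlier results of these data known.

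CPM used column totals. Exon lengths, overlaps and 31-base words came from GENCODE vM21 (GRCm38, the assembly of mm10); 32200 of 44788 symbols and all 163 entries of the 19 lists had a length, 1 under an older symbol. Some genes of these families are not reported here. With 1 group no contrast exists, so edgeR 4.0.16 tested equal level between libraries (glmFit, dispersion 0, TMM factors of 0.996 to 1.003, a filter of 1 CPM or more in 2 or more libraries, Benjamini-Hochberg over all genes tested, threshold 0.05). The test was also run on simulated data for 13500 genes, where 1 library carried the change. Of 100 genes with a 1.5-fold change 86 were recovered, and of 100 with a 2-fold change 92. Of 13300 unchanged genes 12 were called. The simulated counts held counting noise only, with no further spread between libraries, so these rates may not hold for the real libraries.

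Named are the 8 receptor genes, every ligand, partner chain, partner cytokine, JAK and STAT gene, at most 4 genes of other lists by CPM per kb, genes without reads, annotated neighbours and, with markers of other cell types left out, the closest gene by level. Genes named for their variation between libraries or as single exceptions fall outside this rule. Alternatives tried were size factors from DESeq2 1.42.0, column totals, other filters and lengths, 0.1 added to counts, and leaving out each library. Software was Python 3.11.15 (scipy 1.17.1, numpy 2.4.6, matplotlib 3.10.9, pandas 2.3.3) and R 4.3.3.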

Additional observations from a re-analysis of the deposited data

How the results depend on the processing

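The longest coding transcript and the summed chains were chosen after seeing the data. No paired comparison of conditions was possible because only 1 group of samples is held. With 0.1 added, other lengths or a library left out, all 11 ratios kept their sign; without length, Il2ra to Il2rg turned to 0.83 and Il2rb to Il2rg to 0.16, and the log2 ratios to Il2rg were -0.24 for Il4ra, -3.41 for Il7r and -7.97 for Il9r, and 1.55 for Il4ra to Il21r. With the longest transcript Il15ra to Il2rb was -2.76. With the longest transcript, the levels were 276 CPM per kb for Il2rg, 185 for Il2ra, 73.9 for Il4ra, 53.1 for Il21r, 18.1 for Il15ra and 12.2 for Il7r, and the longest coding transcript gave the same values but 21.6 for Il15ra. The summed alpha chains Il2ra and Il15ra stood at 0.790 times Il2rg, and at 0.737 and 0.749 with those lengths. Size factors, unscaled totals and both filters left the same 2 receptor genes called and 1677 to 1861 genes in all, against 1847. With a library left out, 742 to 1193 genes and 1 to 2 of the receptor genes varied, with fewer libraries tested. Depth limits Il9r, Il15 and the genes without reads.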
